A study of Drosophila melanogaster with 2 samples.

Results

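The genes described here make the small noncoding RNAs of the nucleus in Drosophila melanogaster. They are the genes whose Ensembl symbol starts with snRNA:, snoRNA: or scaRNA: and that have a pooled ChIP-seq summit within 500 bp of their transcription start site (TSS). Of 306 annotated genes of these 3 classes, 133 met the rule, which is 43.5%, against 8405 of the 18164 genes on the main chromosome arms, which is 46.3%. The members comprised 17 of 32 snRNA genes, 110 of 257 snoRNA genes and 6 of 17 scaRNA genes. A gene was called inside a host when its whole span lay within another gene that does not itself make an RNA of a small class. There were 112 members inside a host and 21 free-standing members.

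The chromatin came from whole embryos of mixed sex, 0 to 24 h old, of a transgenic line with a stable CG4282 protein fused at its C-terminal end to GFP. It was immunoprecipitated with an anti-GFP antibody. The 2 libraries formed 1 group and carry the biological replicate numbers 3 and 4. An untagged line, an input library and a second condition were not analysed here, so no groups could be compared and no value below carries a test between conditions. Whole embryos pool all tissues, and a peak does not show in which cells it arose.

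Small nuclear RNAs (snRNAs) are the RNA parts of the spliceosome and of a few other nuclear particles. Small nucleolar RNAs (snoRNAs) guide the chemical modification of ribosomal RNA, those with C/D boxes directing ribose methylation and those with H/ACA boxes directing pseudouridylation. Small Cajal body RNAs (scaRNAs) guide the same reactions on snRNAs. Fly snRNA genes have their own promoters, built on a proximal sequence element (PSEA) that the complex SNAPc binds. RNA polymerase II transcribes U1, U2, U4, U5, U7, U11 and U12 genes, and RNA polymerase III transcribes U6, U6atac and 7SK genes. Most fly snoRNAs and scaRNAs are instead cut out of the introns of host genes, so the annotated start of such a gene is the 5′ end of a processed RNA and not a promoter.

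The authors deposited a relaxed list of 30000 peaks for each replicate and for both replicates pooled, and an optimal list of 1985 peaks from the irreproducible discovery rate procedure. The optimal peaks were the 1985 pooled peaks of highest signal. The signal is the authors' own enrichment value for each peak. It serves here to order peaks inside a list and to describe them, and the read depth behind it is unknown. A member with an optimal summit within 500 bp of its TSS is called bound below. Its signal and rank are those of the strongest summit in that window, with rank 1 the strongest. All coordinates are dm6 and 1-based.

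Bound snRNA genes differed in where the summit lay relative to the promoter element, and the 100 bases before the start of each of the 6 are shown for that reason. The letters are those of the RNA-coding strand, 5′ to 3′, read from the RefSeq dm6 genome. Capitals mark the PSEA core AATTCCC or, where that is absent, the variant NATTCNC at the same place. The windows are chr3R:23859631-23859730 (minus strand) for U1:95Ca, chr3R:24556592-24556691 (plus strand) for U6:96Ab, chr3R:24557115-24557214 (plus strand) for U6:96Ac, chr3R:7474997-7475096 (minus strand) for 7SKa, chr2L:15751683-15751782 (minus strand) for U5:35D and chr2L:21215179-21215278 (minus strand) for U4:39B. The last sequence, from chr3R:23827770-23827869 (plus strand), belongs to U1:95Cb, whose RNA has the same letters as that of U1:95Ca but which had no pooled summit within 500 bp.
U1:95Ca: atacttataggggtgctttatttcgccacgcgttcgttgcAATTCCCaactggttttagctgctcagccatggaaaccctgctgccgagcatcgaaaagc
U6:96Ab: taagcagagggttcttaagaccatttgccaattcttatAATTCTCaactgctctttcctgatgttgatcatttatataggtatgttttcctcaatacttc
U6:96Ac: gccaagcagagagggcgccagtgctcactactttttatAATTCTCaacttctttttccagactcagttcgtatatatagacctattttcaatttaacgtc
7SKa: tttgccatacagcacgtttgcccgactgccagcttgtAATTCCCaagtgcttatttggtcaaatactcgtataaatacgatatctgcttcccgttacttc
U5:35D: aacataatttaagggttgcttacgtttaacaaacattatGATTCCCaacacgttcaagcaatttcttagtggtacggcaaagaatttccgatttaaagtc
U4:39B: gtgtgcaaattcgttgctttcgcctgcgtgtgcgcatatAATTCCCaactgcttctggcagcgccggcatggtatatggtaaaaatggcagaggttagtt
U1:95Cb: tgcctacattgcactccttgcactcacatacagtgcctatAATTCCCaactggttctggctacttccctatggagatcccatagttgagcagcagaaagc

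The share of bound members was near that of genes at large. Of the 133 members, 21 were bound, which is 15.8% with a 95% Wilson interval of 10.6 to 22.9%. The same held for 1740 of all 8405 genes with a pooled summit at the TSS, which is 20.7%. The 21 bound members had 19 distinct summits, because some close neighbours share a summit, and the intervals on shares cover counting error over genes only. The median pooled signal was 33.1 at the members (quartiles 25.1 to 46.1) and 38.4 at all genes with a summit (quartiles 27.6 to 59.7).

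The shares differed between placements and classes, with wide intervals. Among free-standing members 7 of 21 were bound, which is 33.3% (17.2 to 54.6%), and among members inside a host 14 of 112, which is 12.5% (7.59 to 19.9%). By class, 6 of 17 snRNA genes (35.3%), 15 of 110 snoRNA genes (13.6%) and 0 of 6 scaRNA genes were bound. Their intervals were 17.3 to 58.7%, 8.44 to 21.3% and 0 to 39.0%, and each includes the 20.7% of all genes. The 6 bound snRNA genes had 5 distinct summits. For comparison, 10 of 96 tRNA genes with a pooled summit were bound (10.4%), a set transcribed by RNA polymerase III. Among snoRNA members, 5 of 33 with a C/D name, 8 of 58 with an H/ACA name and 2 of 19 whose name gives no box were bound. The interval of the free-standing share includes the 20.7% of all genes, whereas that of the members inside a host lies below it. With each shared summit counted once, 13 of 84 summits inside a host were optimal, which is 15.5% (9.27 to 24.7%), an interval that includes 20.7%. With a window of 1000 bp the share inside a host was 20.1%, against 19.6% of all genes.

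**Figure D1:**
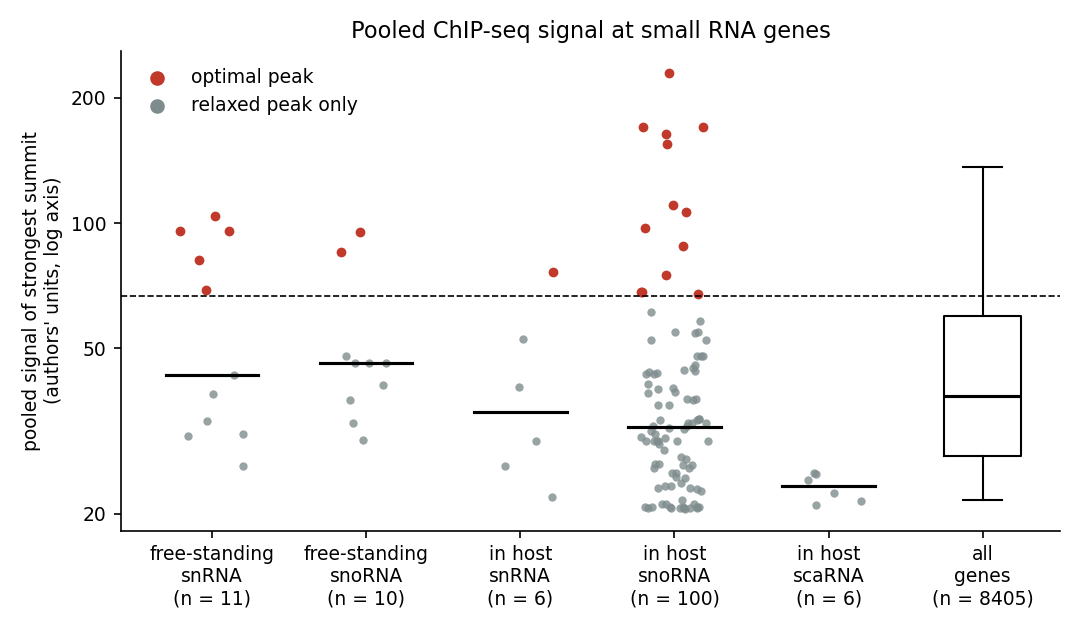
Pooled signal of the strongest summit within 500 bp of the TSS, on a log axis in the authors' units, for members by class and placement, with the 5th, 25th, 50th, 75th and 95th percentiles of all genes with a summit as a box at the right. Black bars are medians and the dashed line is the lowest optimal signal, 66.9; the highest members were snoRNA genes inside hosts, up to 230.1, and no scaRNA gene reached the line.

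U1 snRNA, which pairs with the 5′ splice site, is made from 5 annotated gene copies, of which 3 were members and 1 was bound. U1:95Ca (chr3R:23859467-23859630, minus strand, free-standing) had the highest signal of the snRNA genes, 104.0 in the pooled list at rank 798. Its signal was 53.2 at rank 572 in replicate 3 and 51.0 at rank 1329 in replicate 4. The pooled summit lay 38 bp past the TSS and the replicates' summits 11 and 29 bp past it, inside the transcribed part. U1:82Eb, with a pooled signal of 43.1 and a summit at 33 bp, and U1:21D, with 38.8 and a summit at 126 bp, were not bound. Both also had the summit in the transcribed part.

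The transcribed parts of the U1 copies are nearly the same sequence, which bears on where their reads could be placed. U1:95Ca, U1:95Cb and U1:21D are identical over all 164 bases, while the 100 bases before the TSS are identical between U1:95Ca and U1:95Cb at 53 positions. Of the 32-base words in the transcribed part of U1:95Ca, 0% occur once in the genome, against 60.5% of those within 200 bp of its summit. U1:95Cb and U1:95Cc had their nearest pooled summits 909 and 825 bp away. How reads that match several places were handled is not given in the sources used here, and its part in the signal at any single copy was not tested.

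U6 snRNA forms the catalytic core of the spliceosome together with U2, and its 3 copies lie side by side on arm 3R. U6:96Ab (chr3R:24556692-24556798) and U6:96Ac (chr3R:24557215-24557321), both on the plus strand, shared a bound summit between them, 417 bp past the start of U6:96Ab and 106 bp before that of U6:96Ac. That summit had a pooled signal of 95.6 at rank 956, 42.8 at rank 865 in replicate 3 and 49.8 at rank 1415 in replicate 4. The replicates' summits lay 104 and 106 bp before the start of U6:96Ac, so they coincided with the pooled one within 2 bp. The third copy, U6:96Aa, lies inside Esyt2 and had a separate summit 308 bp before its start, of signal 52.8, which was not optimal. The 3 copies are identical over all 107 transcribed bases, but 82.2% of the 32-base words within 200 bp of the shared summit occur once in the genome.

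7SK RNA holds the elongation factor P-TEFb in an inactive complex. The free-standing gene 7SKa (chr3R:7474553-7474996, minus strand) was bound with a pooled signal of 69.1 at rank 1839, close to the end of the optimal list. Its signal was 32.5 at rank 1457 in replicate 3 and 36.0 at rank 3213 in replicate 4. Its summit lay 130 bp past the TSS, within the gene, where every 32-base word is unique. The other annotated 7SK gene, 7SKb, had its nearest summit 2073 bp away. It is not a close copy, with 237 of 477 aligned positions identical to 7SKa (49.7%).

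U4 pairs with U6 before the spliceosome is activated, and 2 of its 3 copies were members. U4:39B (chr2L:21215036-21215178, minus strand) lies inside Atg18b and was bound, with a pooled signal of 76.3 at rank 1528. Its signal was 35.3 at rank 1229 in replicate 3 and 40.7 at rank 2311 in replicate 4. The summit lay 82 bp past its own TSS and 5476 bp from that of Atg18b, so this peak was at the snRNA and not at the start of the host. U4:38AB, inside sick, had a signal of 40.2 and a summit 8 bp past its TSS, and was not bound.

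U5 holds the exons together during splicing, and 3 of its 7 copies were members. U5:35D (chr2L:15751557-15751682, minus strand) counted as bound only at the edge of the window. Its summit, of pooled signal 81.4, lay 496 bp past the snRNA start and 108 bp before a TSS of ND-B17, which encodes a subunit of respiratory complex I. In replicate 3 the summit had a signal of 23.4 at rank 2573, and replicate 4 had none within 500 bp of the snRNA start. The nearest one of replicate 4 lay 568 bp past that start and 72 bp from the pooled summit, with a signal of 62.8 at rank 821. U5:63BC had a signal of 33.5 with a summit at 51 bp, and U5:34A a signal of 26.1 with a summit at 156 bp.

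None of the remaining snRNA members was bound. U2, which pairs with the branch point, had 3 members among 6 copies, with signals of 31.1 at U2:34ABa, 30.8 at U2:34ABb and 26.1 at U2:34ABc, which shares its summit with U5:34A. Each U2 summit lay outside the transcribed part. That of U2:34ABa, 280 bp past the snRNA start, lay 22 bp before a TSS of CG15482. That of U2:34ABb lay 195 bp past the start, just beyond the end of the 192 bp gene. U12 of the minor spliceosome had a signal of 29.9, and U7, which directs the cutting of histone pre-mRNAs, had 21.9. Both lie inside a host, Baldspot and Eip63E. The other 15 annotated snRNA genes had no pooled summit within 500 bp, among them U11, U4atac and U6atac, which like U12 belong to the minor spliceosome.

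**Figure D2:**
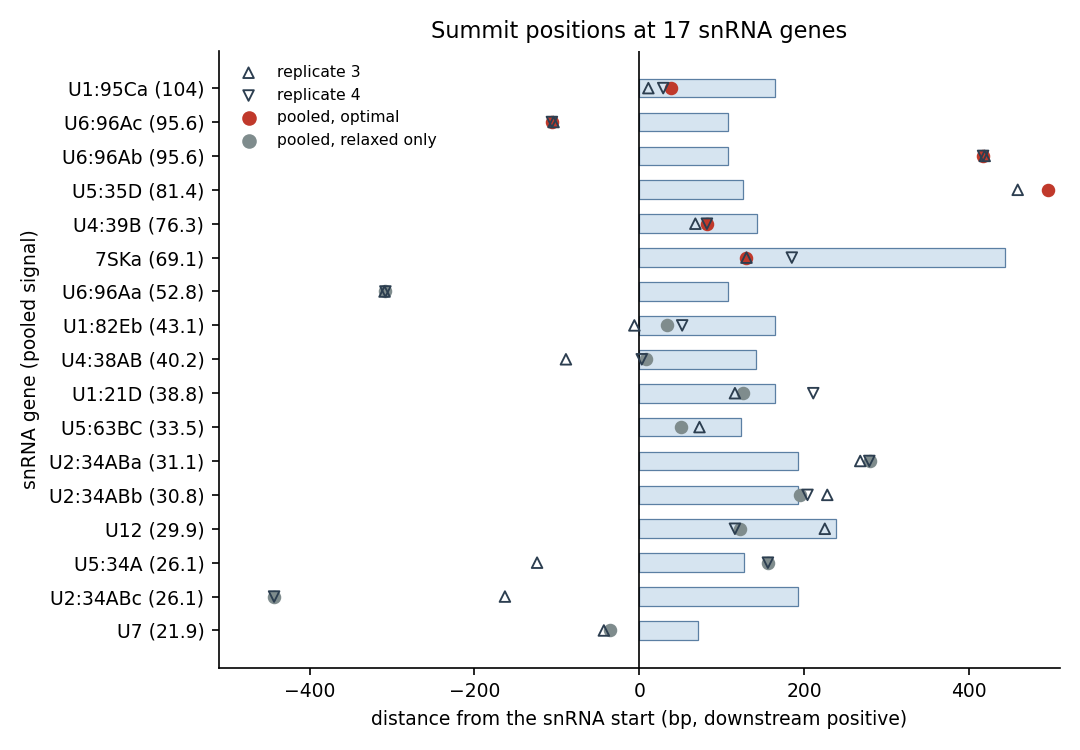
Position of the pooled summit (filled circles) and of the summit of each replicate (open triangles) relative to the start of each of the 17 snRNA members, in bp with downstream positive. Genes are ordered by pooled signal, given in brackets in the authors' units, and pale bars span the transcribed part; the pooled summit lay in the transcribed part of 8 genes and upstream of 4.

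Summits at snRNA genes fell past the TSS more often than before it. Of the 17 genes, 8 had the pooled summit in the transcribed part, 5 past its end and 4 upstream. They had 15 distinct summits, since U6:96Ab and U6:96Ac share a summit, as do U5:34A and U2:34ABc, and each of these counts once past a gene and once upstream of its neighbour. At the 11 free-standing snRNA genes 1 summit was upstream and the median position was 130 bp past the TSS. At all 8405 genes with a summit, 57.1% of the summits lay upstream and the median position was 31 bp before the TSS. Free-standing snoRNA genes had the other arrangement, with 9 of 10 summits upstream. At the free-standing U5:35D and U2:34ABa, both counted past the end, the summit lay 108 and 22 bp before a TSS of ND-B17 and of CG15482. Shared summits, nearby starts of other genes and the fragment size of 200 to 800 bp limit how finely a position can be read. So does sequence that copies share. At the 8 genes with the summit in the transcribed part, that part differed in its share of short words found once in the genome. The share was 0% at U1:95Ca and U1:21D, 35.9% at U5:63BC, 47.4% at U1:82Eb, 47.7% at U4:38AB and 48.2% at U4:39B. At U12 and 7SKa it was 100%. The part of read placement in these positions was not tested.

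The promoter element was a shared feature of the snRNA genes that the choice of members did not use. The core AATTCCC, searched on both strands in the 100 bp before the TSS, was present at 11 of the 17 members and at 22 of all 32 annotated snRNA genes, against 333 of 23584 annotated promoters (1.41%). At members it started 59 to 63 bp before the TSS. The looser form NATTCNC, searched on the RNA-coding strand from 65 to 55 bp before the TSS, was found at all 17 members and at 30 of the 32 annotated genes, against 1.18% of all promoters. This form was chosen after the upstream sequences had been seen. All 6 bound and all 11 unbound members carried the looser form, as did 13 of the 15 snRNA genes without a summit in the window.

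The peaks were not centred on that element. None of the 18 distinct summits of free-standing members had AATTCCC within 50 bp of it, against 1.03% of the 30000 pooled summits. Only 8 of the 21 free-standing members carry AATTCCC before the TSS, and the background share is low, so this count can show little. At U1:95Ca the summit lay 98 bp past the first base of the core, and at U4:39B and 7SKa it lay 143 and 193 bp past it. At U6:96Ac the summit lay 44 bp before the core, and U7, with 24 bp, had the closest of the snRNA summits. The TATA box letters TATAAA stood in the 100 bp before the TSS of 4 of 21 free-standing members (19.0%), against 17.6% of all promoters.

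Among the free-standing snoRNA genes, 10 of 11 were members and 2 were bound. Psi18S-176 (chr2R:23839911-23840064, minus strand), an H/ACA gene by its name, had a pooled signal of 95.1 at rank 965 and a summit 36 bp before its TSS. Its signal was 26.8 at rank 2020 in replicate 3 and 67.2 at rank 682 in replicate 4, and the start of lncRNA:CR44805 lay 477 bp from the same summit. The gene snoRNA:185 (chr2R:19727098-19727152, minus strand) had a pooled signal of 85.4 and a summit 14 bp before its TSS, with 40.0 at rank 988 in replicate 3 and 47.6 at rank 1557 in replicate 4. The start of tRNA:Glu-TTC-1-5 was within 500 bp of that summit as well.

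The other 8 free-standing snoRNA genes were below the optimal list. Psi28S-1153 and both of its snoRNA neighbours shared a summit of signal 46.1, and Psi18S-301 had 48.0. U3, a C/D RNA needed for the cutting of ribosomal RNA precursors, is made from its own promoters. Its copies had signals of 40.9 at U3:9B, 33.1 at U3:54Aa and 30.2 at U3:54Ab. U3:9B was the only free-standing snoRNA member with AATTCCC in the 100 bp before its TSS; within 200 bp there were 2. None of the 32-base words within 200 bp of the U3:54Aa summit occurs once in the genome, so reads from this copy and from other places cannot be told apart there.

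Inside host genes, the bound members were mostly those close to the start of the host. In 29 of the 112 members the strongest summit was also within 500 bp of a TSS of the host, and 10 of these were bound (34.5%). In the other 83 it was not, and 4 were bound (4.82%). Hosts were bound more often than their small RNAs: 40 of the 109 host genes with a pooled summit at a TSS were bound (36.7%), against 20.7% of all genes and 22.2% of protein-coding genes with a summit, and 31 of these 40 held no bound member. Hosts that encode ribosomal proteins were bound in 19 of 26 cases (73.1%), Uhg hosts, whose spliced RNA serves mainly to carry snoRNAs, in 1 of 7, and other hosts in 20 of 76. A summit near any annotated TSS of a gene counts in these shares, which were not adjusted for the number of TSSs. Ribosomal protein genes that hold no small RNA were not counted, so a link between their share and hosting was not tested. Of the 96 small RNA genes in bound hosts, 10 carried the call themselves.

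These were sorted by the distance of the small RNA's start from the optimal summit of the host. All 9 small RNA genes whose start lay within 500 bp of the optimal summit of the host were bound, which follows from the definition. Beyond 500 and up to 1000 bp, 1 of 18 was bound, beyond that and up to 2000 bp 0 of 35, and further away 0 of 34. The 1 bound gene was Psi18S-1295 in RpS20, whose start had a pair of optimal summits, with signals of 225.3 at 207 bp before it and 74.9 at 8 bp before it. The snoRNA lay within 500 bp of the weaker one alone. RpS5a holds 14 small RNA genes, 6 of them members, its summit had a signal of 128.1, and none of the 6 was bound. Fib, which encodes the methyltransferase fibrillarin of C/D particles, is a host too, with a signal of 330.9 at its own TSS, and its snoRNA:229 lay 823 bp from that summit.

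**Figure D3:**
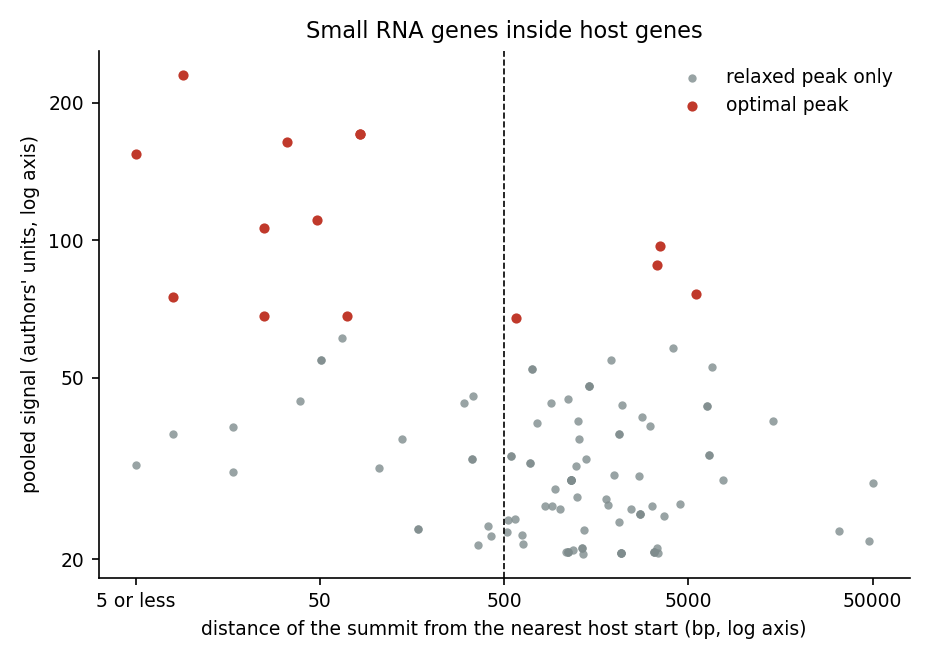
Pooled signal against the distance of the strongest summit from the nearest start of the host, both on log axes, for members inside a host. The dashed line is 500 bp; 10 of the 14 bound members lie left of it and 4 right of it.

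Of the 10 bound members at a host start, 8 lay in ribosomal protein genes and 2 in Uhg4. Over all members inside a host, 8 of 44 in ribosomal protein genes (18.2%), 2 of 8 in Uhg genes and 4 of 60 in other genes (6.67%) were bound, against 20.7% of all genes with a summit. U49:66Da in RpL14 had the highest pooled signal of all members, 230.1 at rank 129. In replicate 4 the summit had a signal of 136.9 at rank 127. In replicate 3 the nearest summit, 68 bp away and just outside the snoRNA's window, had 97.4 at rank 140, and the one within 500 bp of the snoRNA was another, with 30.6 at rank 1622. The pooled summit lay 9 bp before the RpL14 start and 476 bp before the snoRNA, and the start of Nelf-E was within 500 bp as well. Psi28S-2949 and Or-aca5 in Uhg4 shared a summit of signal 170.5 at rank 261, 83 bp before the start of Uhg4. Its signal was 86.7 at rank 188 in replicate 3 and 86.3 at rank 380 in replicate 4.

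Psi28S-1232 in RpL17 had a pooled signal of 164.1, and its ranks of 268 in replicate 3 and 388 in replicate 4 were close. Psi18S-1275 in RpS29 had 154.6, with ranks of 351 in replicate 3 and 357 in replicate 4. Both C/D and H/ACA guides were among the strongest members. Or-CD11a in RpL28 had 110.5 and Me28S-A774b in RpS12 had 106.2, and both were among the strongest 1985 peaks of each replicate. Psi18S-1295 in RpS20 had 74.9, Me18S-C1096 in RpL3 68.3 and Psi18S-920 in RpL10Ab 68.1. These 3 were outside the strongest 1985 peaks of replicate 3 and among those of replicate 4, at ranks 1306, 1505 and 1511. The nearest replicate 3 summits had ranks of 3109 for Psi18S-1295 and 3471 for Psi18S-920. For Me18S-C1096 it had rank 2155 and lay 87 bp from the pooled summit, just outside the snoRNA's window.

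Of these host starts, 3 carried the DNA replication-related element ATCGATA at the summit, a promoter motif of housekeeping genes, and the bases up to 50 bp on each side of the summit are shown. The letters are on the strand of the snoRNA, and capitals mark the element or its core CGATA, the core of the BEAF-32 site, on either strand. The windows belong to Or-CD11a in RpL28 (chr3L:3222958-3223058, minus strand), Me28S-A774b in RpS12 (chr3L:13023277-13023377, plus strand) and Psi18S-1275 in RpS29 (chr3R:9777997-9778097, plus strand).
Or-CD11a: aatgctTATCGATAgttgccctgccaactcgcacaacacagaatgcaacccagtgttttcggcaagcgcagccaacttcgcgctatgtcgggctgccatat
Me28S-A774b: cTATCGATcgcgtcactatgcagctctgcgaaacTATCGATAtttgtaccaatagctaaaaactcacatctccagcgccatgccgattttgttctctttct
Psi18S-1275: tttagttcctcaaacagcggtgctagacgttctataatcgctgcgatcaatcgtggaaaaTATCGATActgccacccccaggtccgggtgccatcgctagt

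Over all bound members, 3 of 19 distinct summits held ATCGATA within 50 bp (15.8%), against 7.46% of the 1985 optimal summits. The shorter CGATA, which lies within ATCGATA, was at 4 of 19, against 21.0% of the optimal summits. None of the 18 distinct free-standing summits held ATCGATA or CGATA, against 2.37% and 13.1% of all pooled summits. With so few summits these shares are a description.

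Next to U4:39B, 3 bound members inside a host had the summit more than 500 bp from every host start. Or-CD13 (chr2R:10082253-10082322, minus strand) lies on the opposite strand to its host egr and had a pooled signal of 97.2, with ranks of 845 in replicate 3 and 1002 in replicate 4. Its summit was 3504 bp from the nearest egr start. Or-ACA9 (chr3R:15472138-15472648, minus strand) inside AdamTS-A had 88.1, with ranks of 1736 and 984, and a summit 176 bp before its own start and 3369 bp from the host's. Me28S-A1322 inside eEF1alpha1 had 67.5, with a summit 584 bp from the host start. It ranked 15472 in replicate 3 and 2429 in replicate 4, so it was not among the strongest 1985 peaks of either.

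Below the optimal list, snoRNA genes and U6:96Aa had the highest signals. Me18S-A1576 in Uhg2 had 61.0, Me18S-C1968 in Swim 58.2, and Me28S-C3227a and Me18S-C1366 shared 54.7 in Uhg5. A snoRNA gene in Act57B followed with 54.5, then U6:96Aa with 52.8, as given above. Me28S-C3351 and Or-CD12 in RpL28 shared 52.3, and Psi28S-3327a, Psi28S-3327b and Psi28S-3327c in RpS4 shared 47.8. The 6 scaRNA members had low signals, with 21.0 at PsiU5-44 in tra2, 21.5 at MeU5-G38 in pit, 22.5 at MeU5-C46 in CG1142, 24.2 at PsiU2-38.40.42 in bur, 24.9 at MeU2-48 in hfp and 25.1 at MeU1b-A234 in egr. With a window of 1000 bp, 11 scaRNA genes had a pooled summit and 2 were bound, against 19.6% of all genes. Both were members, MeU5-C46 with 112.3 at rank 694 and MeU1b-A234 with 97.2 at rank 921. The first summit was that at the start of the host CG1142, and the second was that of Or-CD13. All 6 scaRNA members lay inside a host, and none had a summit in both replicates. Their median of 23.3 was below the first quartile of all genes with a summit.

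Just inside the window rule were U5:35D at 496 bp, Edc3-a at 498 bp and Psi28S-2626 at 500 bp from the summit, and just outside it MeU2-C28 at 504 bp, Psi28S-3571 at 508 bp and Psi28S-2648 at 511 bp. Only U5:35D of the 3 inside was bound. In signal, the last bound members were Psi18S-920 with 68.1 and Me28S-A1322 with 67.5, and the next below were Me18S-A1576 and Me18S-C1968.

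The replicates ranked the members with moderate likeness. Of the 133 members, 78 had a summit within 500 bp in both replicates, 17 only in replicate 3, 29 only in replicate 4 and 9 in neither. Across the 78 the ranks had a Spearman rho of 0.483. This is a description over genes, some of which share a summit. Of the 21 bound members, 12 were among the strongest 1985 peaks of both replicates, 14 of replicate 3 and 17 of replicate 4. Of all 133 members, 12 had such a peak in both replicates, against 14.4% of all genes with a summit. In replicate 3, 17 members had such a peak, against 20.7% of all genes with a summit. In replicate 4 the number was 17, against 20.3%.

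Free-standing members ranked higher in replicate 3. Of the 17 with a summit in both replicates, 15 had the better rank in replicate 3, or 12 of 14 when a shared summit was counted once. This was so for 31 of 61 members inside a host and for 53.7% of the 6035 genes with a summit in both. These ranks are of the strongest summit in the window, which can be a different peak in each replicate. The median distance between the summits of both replicates was 17 bp over 19 bound members, against 54 bp over the 78. The 19 are among the 78, and bound members were chosen by the irreproducible discovery rate list. The contrast is therefore a description and no test of how well the replicates match.

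**Figure D4:**
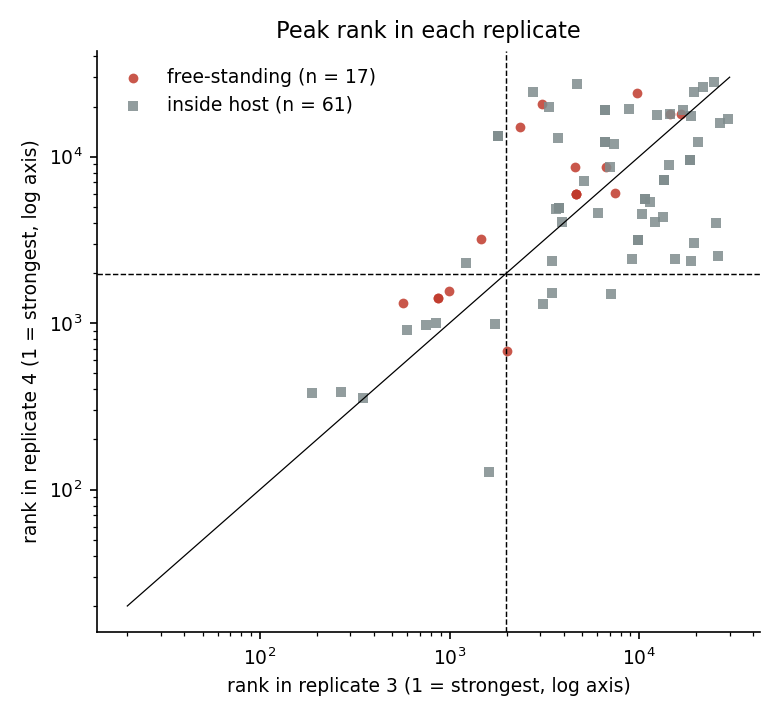
Rank of the strongest summit within 500 bp in replicate 3 against replicate 4, on log axes with 1 the strongest, for the 78 members with a summit in both. Dashed lines are rank 1985 and the diagonal is equal rank; 15 of 17 free-standing members lie above the diagonal, that is, with the better rank in replicate 3.

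Genes for the proteins that make and carry these RNAs were examined as a list of 58 symbols, of which 53 matched the annotation. Of these, 34 had a pooled summit at the TSS and 9 were bound (26.5%), against 20.7% of all genes. The factor TFIIIB, which places RNA polymerase III on its promoters, stood highest. Bdp1 had a pooled signal of 444.7 at rank 29, with ranks of 30 in replicate 3 and 31 in replicate 4. Brf had 191.7 at rank 201, with ranks of 166 and 241. The third gene listed for TFIIIB, Tbp, had no pooled summit within 500 bp, and no other TFIIIB gene was in the list. The summits of Bdp1 and Brf were also within 500 bp of a TSS of CG6565 and of sds22, so the gene at which the protein sat cannot be told apart.

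Integrator, which cuts the 3′ ends of RNA polymerase II snRNAs, had 4 bound genes of 11 with a summit. IntS6 had a signal of 118.0, IntS9 117.7, IntS10 109.5 and IntS11 78.3. IntS11, the cutting subunit, ranked 1194 in replicate 3 and 3270 in replicate 4. Of the U1 and U2 protein genes, snRNP-U1-C had 112.9 and snf 69.5. Fib, with a signal of 330.9 at rank 57, was the only bound gene of the C/D group, where Nop56 had 33.8 and hoip 41.0.

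The other groups held no bound gene among the symbols that matched the annotation. In SNAPc, which binds the PSEA, Pbp95 had a signal of 63.8 at rank 2182, just below the optimal list, and Pbp45 had 26.9. The 4 Sm protein genes with a summit had signals from 24.1 at SmF to 43.7 at SmD3, and Smn, the core of the complex that loads Sm rings on snRNAs, had 56.2. Nop60B, the pseudouridine synthase of H/ACA particles, had 43.4, and coil, the Cajal body protein, 39.8. The 3 LSm genes with a summit had 47.8 at LSm1, 30.5 at LSm7 and 26.7 at LSm3. The symbols LSm2, LSm5, LSm6, LSm8 and SmG did not match the annotation, so their genes were not examined. The 9 bound genes all had the summit before their own TSS, and each had another gene's TSS within 500 bp of it.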

How the data were processed

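ChIP-seq peaks were analysed from 2 libraries in 1 group. Per the deposited file listing, the authors made a relaxed list of 30000 peaks for each replicate and for the pooled replicates, and an optimal list by the irreproducible discovery rate. For the aligner and the peak caller, names and versions are not given in the sources used. The deposited signal is the authors' enrichment value for each peak, and another deposited column holds the offset of the summit from the peak start. The lists in dm6 were used and the dm3 lists were not. Of the per-sample columns, all belonged to the series. Depth is unknown, since read counts were not used here.

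Genes were taken from Ensembl release 115 (BDGP6) and sequences from the RefSeq dm6 genome, whose arm lengths matched. For each gene the strongest summit within 500 bp of any TSS was kept. Members and gene lists were chosen with earlier results of these data known. Named are all snRNA and scaRNA members, all bound members, the strongest 10 unbound snoRNA members (that of Act57B by its host), those at the edge of the window, and bound genes of the protein list; others were chosen after their values were seen. Shares have 95% Wilson intervals. No test between groups was possible. Uniqueness was the share of 32-base words found once in the genome on either strand. The counting was tested on simulated peaks. Python 3.11.15, pandas 2.3.3 and scipy 1.17.1 were used. Alternatives were windows of 250 and 1000 bp, overlap with the gene body by at least 1 bp, the strongest 993 optimal peaks, each replicate alone and same-strand hosts.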

Additional observations from a re-analysis of the deposited data

How the results depend on the processing

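The number of bound members depended on the TSS window. It was 21 with 500 bp and 9 with 250 bp, where the members' share was 13.6% against 22.9% of all genes. It was 45 with 1000 bp, where the share was 21.1% against 19.6%. With the strongest 993 optimal peaks it was 12, or 9.02% against 11.2% of all genes. With peaks that overlap the gene body it was 9, for which the share of all genes is not given here. With the strongest 1985 peaks of a single replicate it was 17 without replicate 3 and 17 without replicate 4. Each is 12.8% of the members, against 20.3% of all genes without replicate 3 and 20.7% without replicate 4. With either replicate left out, 5 free-standing members (23.8%) and 12 inside a host (10.7%) were bound. Free-standing bound members numbered 7 (33.3%), and 4 (19.0%) with the strongest 993 peaks. Those inside a host numbered 14 (12.5%), with 4 (8%) at 250 bp and 38 (20.1%) at 1000 bp. There were 8 (7.14%) with the strongest 993 peaks and 4 with gene body overlap. The count of members inside a host with the summit at a host start was 29, with 10 at 250 bp and 95 at 1000 bp. Members among the strongest peaks of both replicates numbered 12 of 133, against 14.4% of all genes with a summit. They numbered 22 at 5000 peaks, 5 at 250 bp and 32 at 1000 bp, for which the share of all genes is not given here. The upstream element at free-standing members was found in 8 as AATTCCC and in 14 as NATTCNC, a form chosen after seeing the data. The causes were not tested. The median signal was 33.1, with 32.8 to 39.0 under its alternatives. Ranks of named genes stayed within 1.5 times in 46 of 50 cases at 1000 bp, 27 of 28 at 250 bp, 32 of 45 without replicate 3 and 25 of 43 without replicate 4. Genes with no summit under a setting are left out of its cases, so these counts do not cover lost summits. At 250 bp a gene whose strongest summit stays in the window keeps its rank by definition. The 9 bound genes of the protein list numbered 7 to 11 under their alternatives. No paired analysis was possible because the replicates form 1 group.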
